A study of Homo sapiens with 18 samples.

Results

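The response to 72 h of YK-4-279 that TC32 and TC71 shared was measured on 12 of the 18 arrays of the series. Both are cell lines from Ewing sarcoma, a tumour of bone and soft tissue that is driven by the fusion protein EWS-FLI1. The compared arrays were all 6 whose labels give 72 h of treatment with YK-4-279 at 3 µM (3 of TC32 and 3 of TC71) and all 6 of untreated parental cells (3 and 3). The remaining 6 arrays, of clones selected in up to 3 µM over 7 months, entered none of the tests given below, but only an alternative fit of all 18 arrays. The labels name no vehicle for the parental cells, give no passage or harvest day, and leave unsaid whether each replicate had its own culture. The p-values therefore measure the spread between arrays, which may be technical, and 3 arrays a group limit their precision.

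Each value is a log2 expression level relative to the median of the same probe set over the 18 arrays. A value of 0 is therefore a gene's own middle level, and levels of different genes cannot be set against each other. A gene's change is the mean of the 72 h arrays minus the mean of the parental arrays after removal of the difference between the lines, from a limma model with line and treatment as terms. It is given in log2 units with its standard error (SE). "Rose" and "fell" mean an adjusted p under 0.05 (Benjamini-Hochberg over the 12750 genes measured).

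The compound, YK-4-279, is known for keeping EWS-FLI1 from its partner RNA helicase A, which DHX9 encodes. EWS-FLI1 joins the N-terminal part of EWSR1 to the DNA-binding part of FLI1, and the fusion activates some genes and represses others. The lists used below cover its targets, and also the cell cycle, where E2F factors drive the genes of DNA replication, and the integrated stress response, where phosphorylation of the translation factor eIF2 favours translation of ATF4, which then switches on amino acid transporters, tRNA synthetases and DDIT3.

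Before the results, 3 arrays need a word, since 1 of them went against its label. Among 27 genes that separated the other TC32 from the other TC71 arrays by more than 2 log2 units, the array labelled TC32 parental replicate 1 lay on the TC32 side at 5. Its median position was 0.30 on a scale where 0 is TC71 and 1 is TC32, against -0.04 to 0.05 for the TC71 arrays and 0.99 to 1.01 for the other TC32 arrays, and its nearest array was TC71 parental replicate 1. TC71 parental replicate 2 was nearest to a treated array, TC71 72 h replicate 1, and TC71 72 h replicate 2 differed from its nearest array by a root mean square of 0.77, against 0.23 between replicates 1 and 3 of that group. The results were therefore also computed without these 3 arrays (TC32 parental replicate 1, TC71 parental replicate 2 and TC71 72 h replicate 2). The presence of Ewing sarcoma markers cannot be read from values without an absolute level. The marker CD99, a surface protein, changed by -0.39 (SE 0.13, limma adjusted p = 0.108) and NKX2-2, a transcription factor, by 0.36 (SE 0.13, adjusted p = 0.14).

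Across both lines, 315 genes rose (2.47%) and 318 fell (2.49%), together 4.96% of the 12750 genes, and 12117 did not pass. An unadjusted p under 0.05 was found at 2722 genes. Over the 12 arrays compared, 37.9% of probe sets hardly varied (standard deviation under 0.05). The shares and medians given for all genes include them. Most changes were small. The median size was 0.48 log2 units, 407 of the 633 genes changed by under 1.5-fold, and 86 changed at least 2-fold (0.675% of all genes), of which 68 rose and 18 fell. Of the 633, all had the same sign in both lines, which the model favours, since it counts disagreement between the lines as error. At 483 of them the treated and parental arrays did not overlap within either line, as at 2.99% of all genes with higher and 3.13% with lower treated values, and at 264 the 6 treated arrays did not overlap with the 6 parental arrays in spite of the difference between the lines (2.91% of all genes).

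The lines on their own gave fewer shared calls. In a model of the 4 group means, 752 genes passed in TC32 (5.9%) and 149 in TC71 (1.17%), and of the 633 genes 271 also passed in TC32, 65 in TC71, 27 in both and 324 in neither. Over all genes the sign of the change was the same in both lines at 50.7%. Among the 3232 genes with a standard deviation (SD) of at least 0.3 it was the same at 66.4%, with a correlation of 0.37 between the lines' changes across genes, which are not independent replicates and which share arrays within each line.

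**Figure D1:**
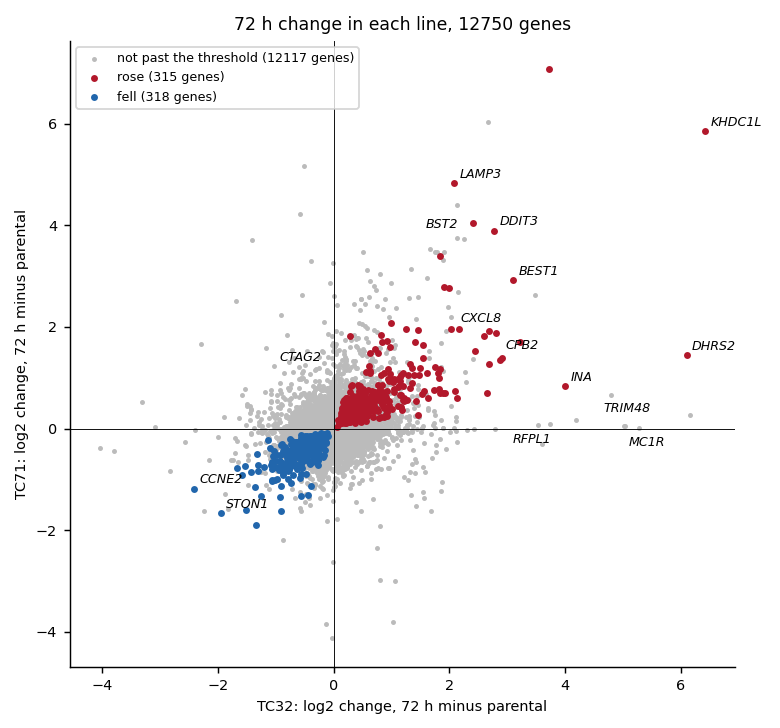
Change of each of 12750 genes after 72 h in TC32 (horizontal axis, log2) and in TC71 (vertical axis, log2), with genes that rose in red (315), genes that fell in blue (318) and the rest in grey. All coloured genes moved in the same direction in both lines, while TRIM48, MC1R and RFPL1 changed by over 3 log2 units in TC32 and by under 0.1 in TC71.

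Single arrays moved the count. It was 1099 without TC32 72 h replicate 1, 106 without TC32 72 h replicate 2 and 197 without replicate 3. It was 359 and 168 without TC32 parental replicates 1 and 2, 339 and 341 without TC71 72 h replicates 1 and 3, and 196 and 191 without TC71 parental replicates 1 and 3. Of the 633 genes, 101 passed in all 12 fits that leave out 1 array, and all 633 kept their sign in those fits. Without the 3 arrays that stand apart 400 genes passed, of which 232 were among the 633.

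KHDC1L, a gene of a family with RNA-binding KH domains that is known from germ cells and early embryos, had the largest rise. Its treated arrays stood at 10.46, 11.04 and 11.51 in TC32 and at 5.95, 5.99 and 5.46 in TC71, and its parental arrays at -0.07, 6.86 and 6.95 in TC32 and at 0.06, -0.11 and -0.10 in TC71. Within each line every treated array was above every parental array, but the parental TC32 arrays disagreed with each other, and the one at the TC71 level was replicate 1, whose line markers also lay near TC71. The change was 6.13 (SE 1.06, 70.3-fold, adjusted p = 0.0193) and 4.84 without the 3 arrays. Leaving out TC32 72 h replicate 2 ended the call (adjusted p = 0.0565). Its probe set lies on chromosome 6 at 73933269 to 73935175 in the annotation of the array, and the build behind these coordinates is not given in the sources used here.

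CPB2 encodes a carboxypeptidase of plasma that the liver secretes and that slows the breakdown of clots. The treated arrays stood at 2.66, 3.34 and 2.94 in TC32 and at 1.68, 1.71 and 2.13 in TC71. The parental arrays stood at 0.10, -0.04 and 0.46 and at -0.11, 0.02 and -0.02. The groups were far apart in both lines. CPB2 rose by 2.34 (SE 0.20, 5.08-fold, adjusted p = 0.00178), and its adjusted p was at most 0.00828 whichever array was left out. Its probe set lies on chromosome 13 at 46627342 to 46679163.

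BEST1 encodes bestrophin, a chloride channel of the retinal pigment epithelium. In TC32 it went from parental values of -0.85, -0.74 and 0.05 to 1.19, 3.19 and 3.37, and in TC71 from -0.83, 0.01 and -0.48 to 1.92, 3.91 and 1.63. The lowest treated array was above the highest parental array over all 12. The rise was 3.01 (SE 0.48, 8.05-fold, adjusted p = 0.0162), and it passed in all 12 fits that leave out 1 array.

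DHRS2, a mitochondrial dehydrogenase gene, and INA, which encodes the neuronal filament protein internexin, rose over both lines with unequal changes in each. On its own, TC71 passed for DHRS2 (adjusted p = 0.0306) and not for INA (change 0.84, adjusted p = 0.226). DHRS2 stood at 5.47, 6.40 and 5.42 in treated TC32 and at 1.15, 0.81 and 0.77 in treated TC71, with all parental arrays between -0.57 and -0.17. INA stood at 2.45, 3.70 and 3.80 in treated TC32 and at 0.53, -0.05 and 0.03 in treated TC71, with parental arrays between -0.69 and -0.64. For both genes no treated array reached down to a parental one. The change over both lines was 3.77 for DHRS2 (SE 0.76, adjusted p = 0.0295) and 2.42 for INA (SE 0.55, adjusted p = 0.0386). The calls were lost in 4 and 8 of the 12 fits that leave out 1 array, with adjusted p up to 0.0693 and 0.0879, both in fits without a TC32 array.

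MIR22HG, the host transcript of a microRNA, rose by 2.47 (SE 0.52, adjusted p = 0.0328), and HMOX1, the haem oxygenase that responds to oxidative stress, by 2.35 (SE 0.56, adjusted p = 0.0433). LAMP3, a lysosomal membrane protein of dendritic cells that also responds to the unfolded protein response, stood between -0.05 and 0.01 in all 6 parental arrays. Its treated arrays stood at 0.01, 2.46 and 3.66 in TC32 and at 3.47, 6.74 and 4.18 in TC71, so that 1 treated array was at the parental level (change 3.46, SE 0.79, adjusted p = 0.0393). The treated array at the parental level was TC32 72 h replicate 1. Leaving out TC32 72 h replicate 3 gave adjusted p = 0.0908.

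CXCL8 (interleukin 8) and RND3 (which lowers the contractility of cells), chosen after their values were seen, passed in all 12 fits that leave out 1 array. CXCL8 stood at 2.31, 2.39 and 3.36 in treated TC32 and at 1.28, 3.18 and 1.22 in treated TC71, against -0.05 to 0.06 in all parental arrays (change 2.31, SE 0.35, adjusted p = 0.0142). RND3 changed by 2.21 (SE 0.27, adjusted p = 0.00732), by 2.60 in TC32 and by 1.82 in TC71.

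**Figure D2:**
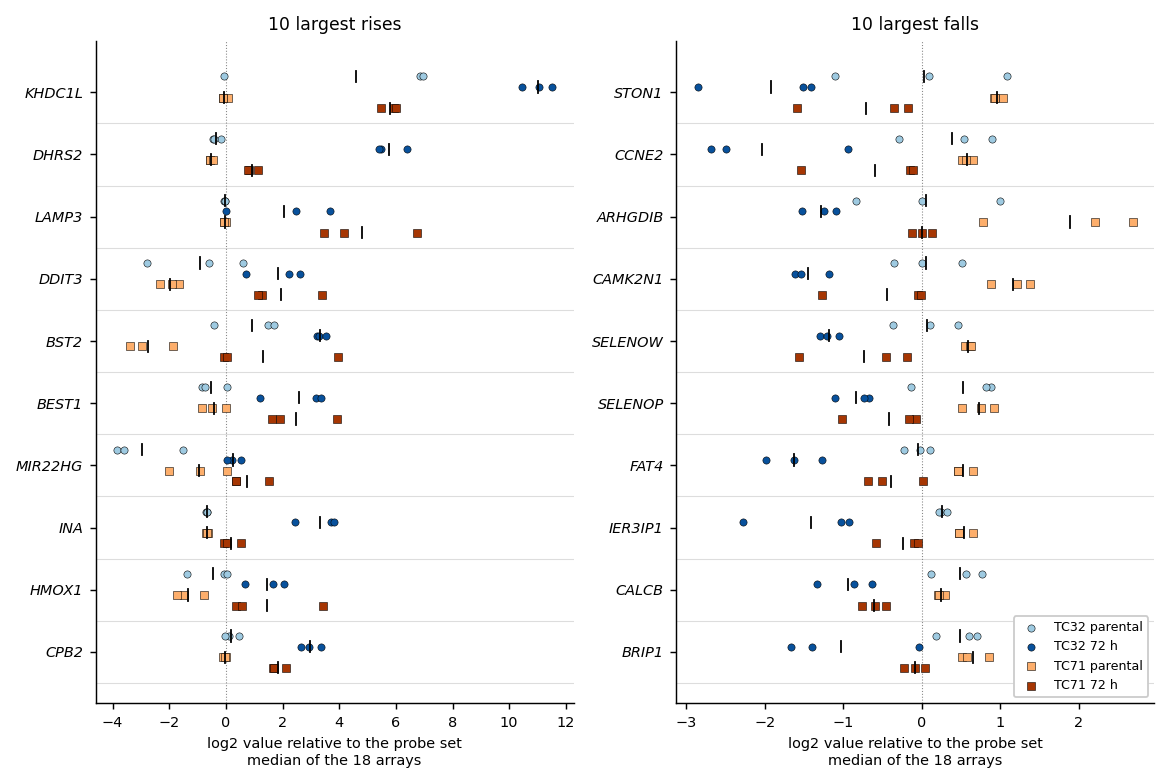
Log2 value of each of the 12 arrays for the 10 genes with the largest rises (left) and the 10 with the largest falls (right) among genes that passed and whose treated and parental arrays did not overlap within either line. Points are arrays, circles TC32 and squares TC71, pale for parental and dark for 72 h, and the short bars are group means. CPB2 and BEST1 separate cleanly in both lines, KHDC1L has 1 parental TC32 array at -0.07 beside 2 near 7, and the falls are smaller than the rises.

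The falls were smaller than the rises. Among genes whose groups did not overlap within either line, the largest was STON1, which encodes the endocytic adaptor stonin 1, with -1.81 (SE 0.41, adjusted p = 0.0387). CCNE2, the cyclin E2 that starts S phase, followed with -1.80 (SE 0.41, adjusted p = 0.0396). It stood at -0.94, -2.68 and -2.49 in treated TC32 against 0.90, 0.54 and -0.29, and at -0.15, -1.54 and -0.11 in treated TC71 against 0.52, 0.66 and 0.57. ARHGDIB fell by 1.61 (SE 0.37, adjusted p = 0.0393). These 3 calls were each lost in 8 or more of the 12 fits that leave out 1 array, with adjusted p up to 0.0902.

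CAMK2N1, an inhibitor of calmodulin-dependent kinase II, FAT4, an atypical cadherin, and CALCB, a calcitonin gene-related peptide, fell in all 12 fits. CAMK2N1 stood at -1.18, -1.62 and -1.54 in treated TC32 against 0.52, 0.01 and -0.35, and at -0.05, -1.27 and -0.01 in treated TC71 against 0.89, 1.38 and 1.21 (change -1.55, SE 0.24, adjusted p = 0.0142). FAT4 changed by -1.25 (SE 0.18, adjusted p = 0.0128) and CALCB by -1.14 (SE 0.16, adjusted p = 0.0128). The treated CALCB arrays, from -1.33 to -0.45, all lay below the parental ones, from 0.12 to 0.77. SELENOW and SELENOP, which encode selenoproteins, both fell, by 1.29 (SE 0.22, adjusted p = 0.0193) and 1.25 (SE 0.22, adjusted p = 0.0206). IER3IP1, an endoplasmic reticulum protein, fell by 1.23 (adjusted p = 0.0308) and BRIP1, a helicase of DNA repair that binds BRCA1, by 1.13 (adjusted p = 0.0468). IER3IP1 passed in 6 of the 12 fits and BRIP1 in 1, with limma adjusted p up to 0.0723 and 0.104.

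Genes of DNA replication had the most falls among the lists. Of 71 measured genes of S phase and DNA replication 19 fell (26.8%, against 2.49% of all genes) and 0 rose. The median change was -0.42, against 0.00 over all genes, with -0.42 in TC32 and -0.35 in TC71. The change was negative in both lines at 59 of the 71, and at 17 (3.13% over all genes) the treated arrays lay below the parental arrays without overlap in each line.

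The 19 genes cover most steps of replication, and their changes ran from -1.80 to -0.22 with a median of -0.53. ORC1 (-0.69, SE 0.15, adjusted p = 0.0328) and ORC3 (-0.31, SE 0.04, adjusted p = 0.0128) encode subunits of the complex that marks origins. The helicase that opens them was represented by MCM4 (-1.05, SE 0.26, adjusted p = 0.0477), CDC45 (-0.81, SE 0.19, adjusted p = 0.043) and GINS1 (-0.93, SE 0.21, adjusted p = 0.038). Primase and polymerase alpha, which begin each new strand, were lower at PRIM1 (-0.22, SE 0.03, adjusted p = 0.0134), PRIM2 and POLA1 (-0.39, SE 0.07, adjusted p = 0.0236), and POLE2, a subunit of the leading strand polymerase, changed by -0.89 (SE 0.21, adjusted p = 0.0453). The supply of nucleotides was represented by RRM2, the small subunit of ribonucleotide reductase, by DUT, which removes dUTP, and by TYMS, which makes dTMP. RRM2 stood at -0.63, -1.36 and -1.71 in treated TC32 against 0.37, 0.15 and -0.59, and at -0.40, -0.58 and -0.40 in treated TC71 against 0.32, 0.26 and 0.34 (change -0.99, SE 0.21, adjusted p = 0.0327). DUT changed by -0.53 (SE 0.09, adjusted p = 0.0178) and TYMS by -0.22 (SE 0.05, adjusted p = 0.0393). CLSPN, EXO1, POLD3, RFC5 and WDHD1 were among the others that fell.

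ORC3 and PRIM1 had small changes but little spread. ORC3 stood at 0.00, -0.15 and -0.22 in treated TC32 and at -0.22, -0.13 and -0.25 in treated TC71, and every parental array lay between 0.04 and 0.28. Both passed in all 12 fits that leave out 1 array, and PRIM1 did not pass in the fit of all 18 arrays (adjusted p = 0.194) or without a line term (0.34).

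**Figure D3:**
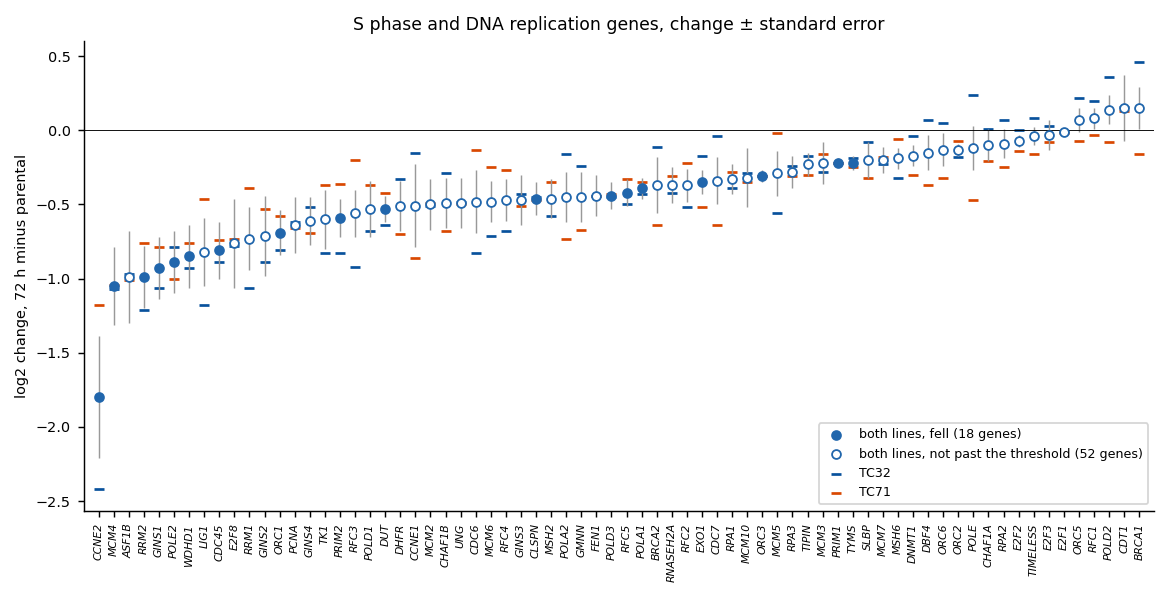
Log2 change after 72 h of 70 of the 71 S phase and DNA replication genes, ordered by the change over both lines (circles, with bars of 1 standard error; filled for the 18 of them that fell), with the change in TC32 and in TC71 as short bars. Most genes lie below 0 in both lines, from CCNE2 at -1.80 to the few genes near or above 0.

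The number of these genes that fell depended on single arrays. It was 29 without TC32 72 h replicate 1 and 23 without TC32 parental replicate 3. It was 2, 4, 5 and 3 without TC32 72 h replicate 2, TC32 72 h replicate 3, TC32 parental replicate 1 and TC32 parental replicate 2. It was 8, 6 and 8 without TC71 72 h replicates 1, 2 and 3, it was 3, 9 and 3 without TC71 parental replicates 1, 2 and 3, and 4 without the 3 arrays that stand apart. The list's median per array is given here, and for the lists below, relative to each gene's mean over the line's parental arrays. The parental arrays of a line are therefore centred by construction. The median was -0.10, -0.45 and -0.61 in treated TC32 and 0.10, 0.05 and -0.19 in parental TC32, so that parental replicate 3 lay below treated replicate 1. In TC71 it was -0.29, -0.57 and -0.24 against 0.02, -0.06 and 0.03, with no overlap. Replicate numbers follow the labels in this order.

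Mitotic genes had a similar median and were called about as often as all genes. Of 73 genes of G2/M and mitosis 2 fell (2.74%, against 2.49% of all genes) and 0 rose, with a median of -0.34 (-0.32 in TC32 and -0.37 in TC71) and 60 genes lower in both lines. MAD2L1, of the spindle checkpoint, changed by -0.77 (SE 0.18, adjusted p = 0.0421) and CENPM, of the kinetochore, by -0.31 (SE 0.08, adjusted p = 0.046). The list's median in parental TC32 was 0.19, 0.19 and -0.39, and replicate 3 lay below 2 of the 3 treated arrays (0.08, -0.28 and -0.70). The number that fell was 16 without TC32 72 h replicate 1, 13 without TC32 parental replicate 3, and 0 without each of the other 10 arrays or without the 3 that stand apart. In bulk samples, a smaller share of cells in a phase and less RNA per cell in that phase cannot be told apart.

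The E2F element was looked for in 300 bases of promoter (250 before to 50 after the RefSeq start) as TTTCCCGC, TTTGGCGC, TTTCGCGC or TTTGCCGC on either strand. It was present in 6.1% of the 9971 measured genes that have a promoter in the table, in 50% of the S phase genes (30 of 60) and in 53.3% of those that fell (8 of 15). It was present in 12.1% of all genes that fell (31 of 257) and in 6.25% of those that rose. POLE2 is shown because it fell in the test over both lines and its match overlaps the start of transcription. The capitals mark the match, which starts 5 bases before the RefSeq start and lies on the reverse strand, in chr14:49688205-49688279 of GRCh38.p14, minus strand.
POLE2: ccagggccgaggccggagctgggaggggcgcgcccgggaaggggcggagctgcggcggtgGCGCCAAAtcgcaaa

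Few genes of the integrated stress response passed, and the median change of the list was above 0. Of 45 measured targets of ATF4 and members of this response 3 rose (6.67%, against 2.47% of all genes) and 0 fell. The median change was 0.65, with 0.25 in TC32 and 1.08 in TC71, and 29 of the 45 were higher in both lines. DDIT3, which encodes the stress factor CHOP, stood at 0.72, 2.21 and 2.63 in treated TC32 against -2.78, -0.60 and 0.60, and at 1.26, 3.41 and 1.12 in treated TC71 against -2.33, -1.65 and -1.92. All 6 treated arrays were above all 6 parental arrays, and the change was 3.34 (SE 0.65, 10.1-fold, adjusted p = 0.0253). CEBPG, the partner that binds DNA with ATF4, changed by 1.60 (SE 0.35, adjusted p = 0.0373) and SLC1A4, a transporter of neutral amino acids, by 0.50 (SE 0.09, adjusted p = 0.0193).

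Other members had large changes that did not pass. TRIB3, a pseudokinase that CHOP induces, stood at -1.90, 0.87 and 2.33 in parental TC32 and at 0.44, 2.91 and 3.19 in treated TC32 (change 2.61, SE 0.78, adjusted p = 0.0832). ASNS, the asparagine synthetase, changed by 0.98 (SE 0.58, adjusted p = 0.406), by 0.04 in TC32 and by 1.92 in TC71. ATF4 itself changed by 0.52 (SE 0.20, adjusted p = 0.163). The list's median was -0.86, 0.18 and 0.55 in parental TC32 and -0.16, 0.35 and 0.57 in treated TC32, which overlap, and -0.13, 0.26 and -0.14 against 0.84, 1.54 and 0.90 in TC71, which do not. The number of members that rose was 11 without TC32 72 h replicate 1, 8 without TC32 parental replicate 3, 0 without TC32 72 h replicate 2, 1 without TC32 72 h replicate 3, TC32 parental replicate 2, TC71 parental replicate 1 or TC71 parental replicate 3, and 1 without the 3 arrays that stand apart.

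Of 19 cytosolic aminoacyl-tRNA synthetases, which load amino acids onto tRNA, 2 rose (10.5%, against 2.47% of all genes) and 0 fell. AARS1, for alanine, stood at -0.05, 0.94 and 1.07 in treated TC32 against -0.47, -0.15 and 0.08, and at 0.77, 1.03 and 0.81 in treated TC71 against -1.05, -0.18 and -1.23 (change 1.26, SE 0.27, adjusted p = 0.0328). Treated TC32 replicate 1 lay within the parental range, and the others did not. HARS1, for histidine, changed by 0.34 (SE 0.07, adjusted p = 0.0276). The 2 calls became 0 without TC32 72 h replicate 2 or 3, TC32 parental replicate 2, TC71 72 h replicate 1, TC71 parental replicate 1 or 3, or the 3 arrays, and 1 without TC32 parental replicate 1, TC71 72 h replicate 2 or TC71 72 h replicate 3. The list's median was 0.23, with 0.08 in TC32 and 0.44 in TC71.

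The element that ATF4 binds with a partner of the C/EBP family was looked for as TGATGNAA on either strand of the same promoters. It was present in 3.46% of all 9971, in 35.1% of the stress response genes (13 of 37), in 46.7% of the tRNA synthetases (7 of 15) and in 4.3% of all genes that rose (11 of 256). It was present in 2 of the 3 stress response genes that rose and in 1 of the 2 tRNA synthetases that rose. DDIT3 and HARS1 had no match in the window. The 3 promoters below hold the element and belong to genes that rose in the test over both lines. Capitals mark the match, which starts 42 bases before the RefSeq start in CEBPG (chr19:33374011-33374122, plus strand), 7 bases before it in SLC1A4 (chr2:64989332-64989408, plus strand) and 187 bases before it in AARS1 (chr16:70289626-70289753, minus strand), in GRCh38.p14. In SLC1A4 and AARS1 the element reads on the reverse strand. These matches are letters in a window and not evidence of binding.
CEBPG: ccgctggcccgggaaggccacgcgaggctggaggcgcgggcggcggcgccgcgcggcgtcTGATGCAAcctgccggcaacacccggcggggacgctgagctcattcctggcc
SLC1A4: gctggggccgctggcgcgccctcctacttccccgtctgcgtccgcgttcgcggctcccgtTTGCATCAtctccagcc
AARS1: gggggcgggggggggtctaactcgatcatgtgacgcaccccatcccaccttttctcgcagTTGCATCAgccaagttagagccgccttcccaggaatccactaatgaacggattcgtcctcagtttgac

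Endoplasmic reticulum chaperones and genes of the unfolded protein response had 2 rises and 1 fall among 42 (7.14%, against 4.96% of all genes). OS9 (0.42, SE 0.09, adjusted p = 0.0371) and DERL1 (0.33, SE 0.05, adjusted p = 0.0146), which both serve the removal of misfolded proteins, rose, and SPCS3 (-0.46, SE 0.08, adjusted p = 0.0193), a subunit of signal peptidase, fell. DERL1 passed in all 12 fits that leave out 1 array. The list's median was 0.28, and its highest array was TC71 72 h replicate 2 at 0.97, against 0.22 and 0.23 in the other treated TC71 arrays.

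Interferon genes were highest in 1 array. Of 61 genes of the interferon response and antigen presentation 1 rose (1.64%, against 2.47% of all genes), and the list's median per array was 3.19 in TC71 72 h replicate 2, against 0.44 and 0.43 in the other treated TC71 arrays and 0.02, 0.10 and 0.48 in treated TC32. The parental arrays lay between -0.12 and 0.09. The median change was 0.85, against 0.00 over all genes, with 0.20 in TC32 and 1.37 in TC71. In both lines 43 of the 61 genes were higher and 1 was lower. At 7 (2.99% over all genes) the treated arrays lay above the parental arrays without overlap in each line. BST2, the surface protein tetherin that holds back viruses, stood at 3.20, 3.27 and 3.53 in treated TC32 against -0.43, 1.50 and 1.69, and at -0.05, 3.94 and 0.05 in treated TC71 against -1.87, -2.96 and -3.37. Its groups did not overlap within either line, and it rose by 3.23 (SE 0.74, adjusted p = 0.0403) and by 2.56 without TC71 72 h replicate 2 (adjusted p = 0.022). IFI6 changed by 3.27 (SE 0.84, adjusted p = 0.0559). OAS1, which makes the activator of an antiviral nuclease, stood at 4.82 in TC71 72 h replicate 2 and between -0.02 and 0.06 in the other 11 arrays. The list had 8 rises without TC32 72 h replicate 1, 3 without TC32 parental replicate 3, 4 without TC71 72 h replicate 2, 0 without each of the other 9 arrays, and 1 without the 3 arrays.

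**Figure D4:**
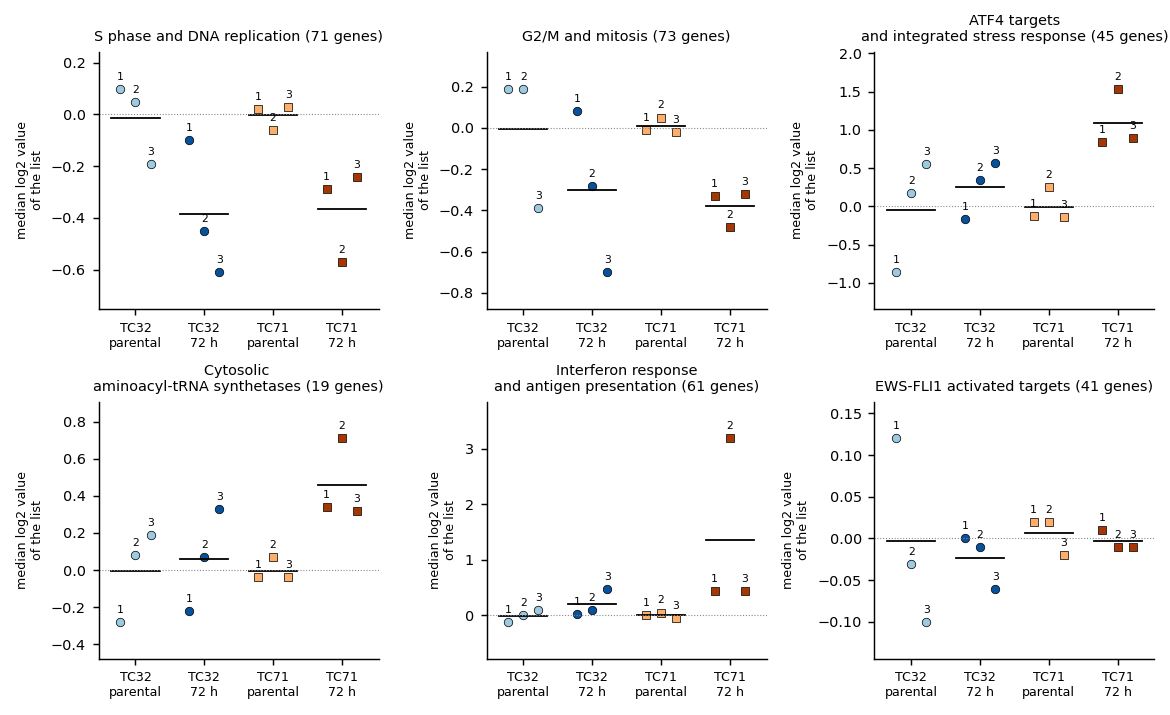
Median log2 value of 6 gene lists in each of the 12 arrays, relative to the mean of the parental arrays of the line. Points are grouped by line and treatment, with the replicate number beside each point and group means as bars. Treated and parental medians of the S phase and stress response lists separate in TC71 and overlap in TC32, the interferon median of 3.19 belongs to TC71 72 h replicate 2, and the EWS-FLI1 activated list stays within 0.12 of 0. The vertical scales differ between panels.

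Targets of the fusion protein had medians near 0. Of 41 genes that EWS-FLI1 activates 2 rose (4.88%) and 0 fell, with a median of -0.02. In both lines 10 of these were higher and 12 lower. Of 42 that it represses 3 rose (7.14%) and 0 fell, with a median of 0.03. The mean of the repressed targets was 0.34, against 0.03 over all genes, and 14 were higher and 4 lower in both lines. Treated arrays lay above parental arrays without overlap in each line at 4 of them (2.99% over all genes). With 1 array left out, 1 to 5 repressed targets rose. Over all genes 2.47% rose and 4.96% changed in either direction. Among activated targets TNFAIP6, a hyaluronan-binding protein of inflammation, rose (1.15, SE 0.25, adjusted p = 0.0366). Classical activated targets did not pass, among them NR0B1 (0.04, SE 0.10, adjusted p = 1), a nuclear receptor, CCND1 (0.19, SE 0.07, adjusted p = 0.172), the cyclin D1, STEAP1 (-0.28, SE 0.14, adjusted p = 0.31), a metalloreductase, and PRKCB (-0.09, SE 0.08, adjusted p = 0.697), a protein kinase C. These 4 were picked as widely used targets, with their values known.

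Among repressed targets FN1, the fibronectin of the extracellular matrix, stood at 0.18, 0.33 and 0.28 in treated TC32 against -0.72, -0.48 and -0.89, and at 0.43, 0.86 and 0.37 in treated TC71 against -0.69, -0.04 and -0.41. All treated arrays were above all parental arrays, and the rise of 0.95 (SE 0.12, adjusted p = 0.00932) passed whichever array was left out. It rests on probe sets of the _x_at and _s_at kinds, which can bind several transcripts, and without them the change was 0.00 (adjusted p = 1). Of its 6 probe sets 1 is also placed on chromosome X by the annotation. NFIL3, a transcription factor that is also induced by stress, rose by 2.06 (SE 0.48, adjusted p = 0.0426), and ACTA2, the smooth muscle actin, by 0.84 (SE 0.17, adjusted p = 0.0295). FN1 and ACTA2 were also the only rises among 54 genes of the extracellular matrix and mesenchymal cells, where 0 fell. That is 3.7% called in either direction, against 4.96% of all genes.

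The gene of the helicase that the compound is described to displace, DHX9, stood at -0.02, -0.89 and -0.43 in treated TC32 against 1.07, -0.03 and -0.23, and at -0.72, -1.52 and -0.84 in treated TC71 against 0.03, -0.09 and 0.52. The groups were apart in TC71 and overlapped in TC32. The change of -0.95 (SE 0.27) did not pass (adjusted p = 0.0702), and it was -0.65 without the 3 arrays (adjusted p = 0.188). It passed with a filter on SD (adjusted p = 0.037), with array weights (0.0128) and with a replicate block (0.0449). Of the 12 fits that leave out 1 array it passed in 2, with adjusted p up to 0.149. EWSR1 (0.08, SE 0.08, adjusted p = 0.679) and FLI1 (0.05, SE 0.11, adjusted p = 1) did not pass either. Their probe sets cannot be assigned to the fusion transcript or the normal genes. None of the 8 genes of this list passed (0 of 8), of which 3 had an unadjusted p under 0.05.

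The remaining lists gave fewer shared changes, and their shares stand against 2.47% of all genes that rose and 4.96% that changed in either direction. Those shares include genes that hardly varied. Among genes with an SD of at least 0.05, 3.55% rose on chromosome arms other than those of chromosome 10. Of 51 genes of ribosome biogenesis and the nucleolus 6 rose (11.8%) and 0 fell, among them UBTF, which activates ribosomal RNA transcription (0.91, SE 0.20, adjusted p = 0.0366), DDX21, a nucleolar helicase (0.36, SE 0.07, adjusted p = 0.0236) and IMP4 (0.36, SE 0.07, adjusted p = 0.0308), which processes ribosomal RNA. That count was 9 without TC32 72 h replicate 1, between 1 and 3 without any one of TC32 72 h replicates 2 and 3, TC32 parental replicates 1 and 2, TC71 72 h replicates 1 and 3 and the TC71 parental arrays, and 1 without the 3 arrays. Of 46 genes of autophagy and the lysosome 5 rose, among them the lysosomal PSAP (0.64, SE 0.11, adjusted p = 0.0211), ATP6V1B2 of the proton pump (0.57, SE 0.13, adjusted p = 0.0415) and TFE3, a factor that drives lysosomal genes (0.48, SE 0.09, adjusted p = 0.0282), and 1 fell (13% in either direction). That count of rises was 1 without TC32 72 h replicate 2, 2 without TC32 72 h replicate 3 or TC32 parental replicate 2, 3 without TC32 parental replicate 1 or TC71 parental replicate 1 or 3, and 5 without the 3 arrays. Those 5 did not include PSAP, ATP6V1B2 or TFE3, whose limma adjusted p there was 0.0721, 0.185 and 0.0951. Of 42 targets of NRF2 and detoxification genes 4 rose (9.52%) and 0 fell, with AKR1C3, an aldo-keto reductase, changed by 2.12 (SE 0.42, adjusted p = 0.0275) and the metallothionein MT2A by 1.13 (SE 0.27, adjusted p = 0.0476) beside HMOX1. No call of this list was left without TC32 72 h replicate 2 or 3, TC32 parental replicate 2, or TC71 parental replicate 1 or 3 (0 in each), 1 was left without TC71 72 h replicate 1 or 3, 2 without TC71 parental replicate 2, and 4 without the 3 arrays.

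Against the same shares, of 37 genes of hypoxia and glycolysis 4 rose (10.8%), among them the collagen hydroxylase P4HA2 (2.62, SE 0.50, adjusted p = 0.0245) and BHLHE40, a clock and hypoxia factor (0.68, SE 0.11, adjusted p = 0.0162), which passed in all 12 fits. P4HA1 changed by 0.59 (SE 0.13, adjusted p = 0.0341). The hypoxia count was 1 without TC32 72 h replicate 2 or 3, TC32 parental replicate 2, or TC71 parental replicate 1 or 3, and 2 without TC32 parental replicate 3 or TC71 72 h replicate 3. Of 44 core histone genes 5 rose and 1 fell (13.6%). H2AC6 (1.34, SE 0.29, adjusted p = 0.0354) and H2BC4 (1.30, SE 0.29, adjusted p = 0.0366) belong to families of near-identical genes whose probe sets may not tell members apart. Of 48 neuronal genes 4 rose and 1 fell (10.4%), and NEFL, a neurofilament, changed by 1.04 (SE 0.22, adjusted p = 0.0308). Left without any one array, the histone rises numbered 1 to 5 and the neuronal rises 0 to 4, lowest in both lists without TC32 72 h replicate 2, and without the 3 arrays they were 2 and 3.

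Of 81 splicing factors and snRNP proteins 7 fell and 2 rose (11.1%, against 4.96% of all genes), among them LSM6 (-0.75, SE 0.13, adjusted p = 0.0197) and LSM2 (-0.44, SE 0.10, adjusted p = 0.0415), of the ring on U6 RNA, and SF3A3 (-0.58, SE 0.11, adjusted p = 0.0236), of the U2 particle. Of 78 cytosolic ribosomal proteins 4 fell and 1 rose (6.41%, near the share of all genes). RPS21 stood at -0.23, -0.24 and -0.42 in treated TC32 against 0.15, 0.19 and 0.27, and at -0.41, -0.70 and -0.39 in treated TC71 against 0.21, 0.15 and -0.02 (change -0.56, SE 0.07, adjusted p = 0.00695). Its groups did not overlap, and it passed in all 12 fits, as did RPL27 (-0.17, SE 0.03, adjusted p = 0.0178). RPL12 changed by -0.15 (SE 0.03, adjusted p = 0.0383). Of 69 genes of the mitochondrial respiratory chain 5 passed (7.25%), of which 3 fell, among them NDUFB2 (-0.38, SE 0.07, adjusted p = 0.0237), and 2 rose, both of complex I (NDUFV1, 0.72, SE 0.14, adjusted p = 0.0239, and NDUFS8, 0.46, SE 0.11, adjusted p = 0.0441). The number of splicing genes that fell was 13 without TC32 72 h replicate 1, 0 without TC32 72 h replicate 2 or TC32 parental replicate 2, 2 without TC32 72 h replicate 3 or TC71 parental replicate 1 or 3, 4 without TC71 72 h replicate 1, and 3 without the 3 arrays. The number of ribosomal protein genes that fell was 2 without TC32 72 h replicate 2 or TC71 parental replicate 1 or 3, and 1 without the 3 arrays, and respiratory chain genes had 11 falls without TC32 72 h replicate 1 and 0 without TC32 72 h replicate 2 or 3 or TC71 parental replicate 3.

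Of 33 targets of p53 2 fell (6.06%, against 2.49% of all genes) and 0 rose. The median of this list was 0.00, with 10 genes higher and 9 lower in both lines. SESN1, a stress sensor that restrains mTOR, stood at -0.37, -0.80 and -0.73 in treated TC32 against 0.24, 0.37 and 0.13, and at -0.55, -0.67 and -0.42 in treated TC71 against 0.12, 0.37 and 0.51. All treated arrays lay below all parental arrays, and the change of -0.88 (SE 0.09, adjusted p = 0.00507) was the same in both lines to 2 decimals. BAX, which opens the mitochondrial outer membrane, changed by -0.52 (SE 0.13, adjusted p = 0.0475), and its groups overlapped in TC71. It passed in 2 of the 12 fits that leave out 1 array, with adjusted p up to 0.106. Without the 3 arrays that stand apart its adjusted p was 0.154. BAX was the only call among 44 apoptosis regulators (2.27%, against 4.96% of all genes). In that list CASP6, a caspase, changed by -0.32 (SE 0.08, adjusted p = 0.0598).

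Several lists had no or single calls, and the tubulin list had 2 in each direction. None of the 28 cholesterol genes passed (0), and 6 had an unadjusted p under 0.05, with PMVK at 0.34 (SE 0.11, adjusted p = 0.106) and SREBF2 at -0.19 (SE 0.08, adjusted p = 0.181). None of the 36 immediate early genes passed (0), although 10 had an unadjusted p under 0.05, and IER3 changed by 3.05 (SE 0.82, adjusted p = 0.0628) and DUSP5 by 0.95 (SE 0.25, adjusted p = 0.0583). Of 31 heat shock genes DNAJA2, a cochaperone, rose (0.37, SE 0.05, adjusted p = 0.0128), and HSPA6 changed by 0.09 (SE 0.03, adjusted p = 0.0779). Of 43 tubulins and microtubule-binding proteins 2 rose and 2 fell (9.3%, against 4.96% of all genes). With 1 array left out, the rises in this list numbered 1 to 4 and the falls 0 to 6. CKAP4, a protein that links the endoplasmic reticulum to microtubules (0.31, SE 0.05, adjusted p = 0.0193), passed in all 12 fits. TUBGCP4, of the ring that starts microtubules, changed by -0.41 (SE 0.08, adjusted p = 0.03) and the tubulin cofactor TBCB by 0.35 (SE 0.09, adjusted p = 0.0492). Of 39 markers of other cell types 1 fell, the receptor gene PDGFRB (-0.90, SE 0.18, adjusted p = 0.0276), and 0 rose. The median of that list was within 0.03 of 0 in every array, and KRT18, a keratin, changed by -0.60 (SE 0.15, adjusted p = 0.0559).

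The change differed between the lines at 164 genes (1.29%), of which 158 were not among the 633. A positive difference means a higher change in TC32 than in TC71. TRIM48, of the tripartite motif family, stood at 4.69, 5.02 and 5.42 in treated TC32 and between -0.01 and 0.11 in all other compared arrays (difference 4.99, adjusted p = 2.27e-05). Its probe set has 5 alignments. MC1R, the melanocortin receptor, stood at 4.41, 5.88 and 5.72 in treated TC32 and between -0.06 and 0.15 elsewhere (difference 5.28, adjusted p = 0.00208), and RFPL1 had a difference of 3.46 (adjusted p = 0.00123). CTAG2, a cancer-testis antigen, moved in opposite directions, from 1.19, 1.04 and 1.14 to 0.04, 0.29 and -0.03 in TC32 and from 0.01, -0.13 and -0.01 to 1.17, 1.39 and 0.97 in TC71 (difference -2.24, adjusted p = 0.00101). No gene past the pooled threshold had opposite signs in the lines (0 of 633). Among the genes with the largest rises, DHRS2 (4.66, adjusted p = 0.00101) and INA (3.16, adjusted p = 0.0152) differed between the lines.

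Some of the shared changes lay together on chromosome arms, a pattern looked at after the values were seen. Over genes with an SD of at least 0.05, the median change was 0.20 for the 74 genes of 10p (0.23 in TC32 and 0.16 in TC71) and 0.12 for the 235 genes of 10q. On 10p 12 genes rose (16.2%) and 0 fell, on 10q 22 rose (9.36%) and 2 fell, and over the other arms 3.55% of such genes rose. The median of 10p was 0.19, 0.24 and 0.23 in treated TC32 and 0.16, 0.15 and 0.13 in treated TC71, each set to the mean of its own parental arrays, against 0.00, -0.03 and 0.01 and against -0.04, 0.10 and -0.08 in the parental arrays. The parental array at 0.10 was TC71 parental replicate 2. On 13q the median was -0.11 and 16 genes fell (10.3%), against 3.47% of genes elsewhere, and TC71 parental replicate 2 stood at -0.12, near the treated TC71 arrays at -0.15.

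Without the 3 arrays that stand apart, 13 genes rose on 10p and 13 on 10q, and 13 fell on 13q. Without TC71 parental replicate 2 alone the counts were 14, 18 and 14, and without TC32 72 h replicate 2, which left the fewest genes in all, they were 3, 3 and 4. The part that a shift of a whole arm has in the calls of single genes was not tested. It touches INA, ACTA2, P4HA1, PSAP, DDX21 and AKR1C3 on chromosome 10, and CPB2 on chromosome 13, which changed against the direction of 13q. On other arms the median moved in TC32 and was near 0 in TC71, with -0.34 against 0.03 on 9p, -0.22 against 0.01 on 5p and 0.30 against 0.00 on 4p. Genes there also passed over both lines: 10 of 59 fell on 5p and 6 of 73 on 9p, where 0 rose, and 5 of 86 rose on 4p, where 0 fell.

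**Figure D5:**
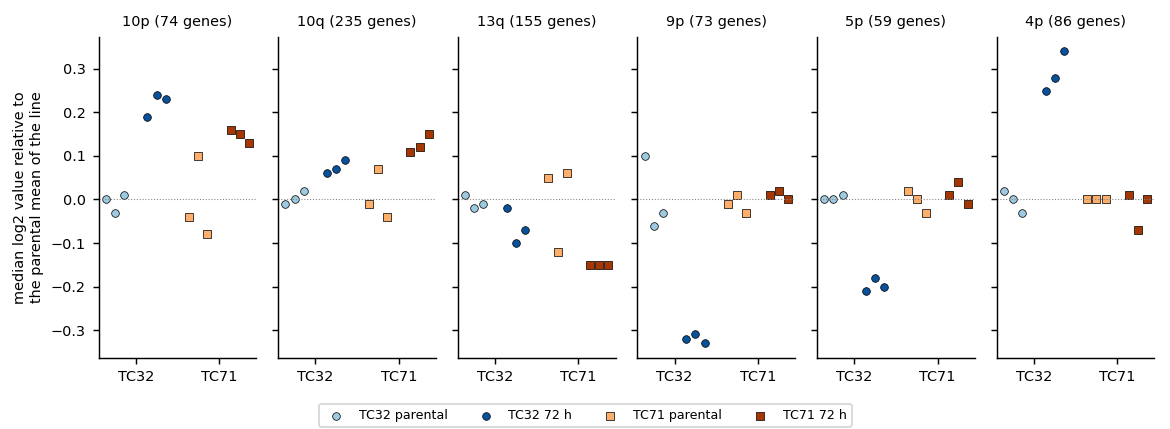
Median log2 value of the genes on 6 chromosome arms in each of the 12 arrays, relative to the mean of the parental arrays of the line. Circles are TC32 and squares TC71, pale for parental and dark for 72 h. Treated arrays are higher on 10p and 10q in both lines, with TC71 parental replicate 2 at 0.10 on 10p, while on 9p, 5p and 4p the treated TC32 arrays are apart and the treated TC71 arrays lie near 0.

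The resistant clones share their parental reference with the treated cells, so their values are only set beside them. CPB2, at 1.68 or more in every treated array, stood at -1.13, -2.90 and -3.41 in the TC32 clones and at -1.81, -2.23 and -1.82 in the TC71 clones. KHDC1L stood between -0.09 and -0.06 in all 6 clones. DHX9 stood at 1.23, 1.20 and 1.68 in the TC32 clones and at 0.81, -0.04 and 1.61 in the TC71 clones. BEST1 stood between -0.86 and -0.01 in 5 clones and at 3.67 in the TC71 clone labelled C4A, which also had 6.38 for LAMP3. For CPB2 and KHDC1L all 6 clones lay below all treated arrays, and for DHX9 5 of 6 clones lay above them. These genes were picked with their values known, and not all genes went that way. INA stood at -0.19, 1.14 and 2.58 in the TC32 clones and at 1.49, -0.03 and 3.09 in the TC71 clones. All 6 of these INA values lay above those of the parental arrays.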

How the data were processed

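The deposited table holds log2 values for 22277 probe sets of an Affymetrix expression array, each relative to the median of its probe set over the 18 arrays, normalized by the authors in GeneSpring GX 12.1 per the submitters' processing notes; the summarization method is not given in the sources used here. Such values hold no absolute level. The 62 control probe sets, 583 with several genes and 1258 with none were left out, and the remaining 20374 were averaged per gene to 12750 genes, with symbols updated through RefSeq. limma 3.58.1 in R 4.3.3 fitted line and treatment on 12 arrays (9 residual degrees of freedom), with Benjamini-Hochberg adjustment over all genes; changes within a line and their difference came from a fit of the 4 group means (8 residual degrees of freedom). The fits were tested on simulated data.

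Genes were named by a rule: the 10 largest rises and falls without overlap in either line, up to 3 members that passed per list or, where fewer than 2 passed, the 2 with the smallest p, DHX9, EWSR1 and FLI1, and the 5 smallest adjusted p of the line difference. Other names were chosen after their values were seen. The compared arrays, the 26 gene lists and the tests were chosen with earlier results of these data known. Alternatives covered normalization, probe set summary, filters, the model, thresholds, a replicate block and leaving out arrays. Some genes that the rule or the lists name are not reported here.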

Additional observations from a re-analysis of the deposited data

Results flagged for a closer look

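Within the 6 treated or the 6 parental arrays, after removal of each line's mean, some values lay far from the rest; chance flags about 1 in 20 groups, and many groups were looked at. In TC32 parental replicate 1 KHDC1L stood at -0.07. In TC71 72 h replicate 2 BST2 stood at 3.94, NEFL at 0.59 and EWSR1 at 0.47, and the list medians were 3.19 for interferon genes and 0.97 for endoplasmic reticulum genes. List medians in this paragraph are relative to the mean of the line's parental arrays. In TC32 72 h replicate 1 AARS1 stood at -0.05 and ATP6V1B2 at -0.29, and the splicing median was -0.0. In TC32 72 h replicate 3 IER3IP1 stood at -2.28, and the ribosome biogenesis median was 0.25. In TC32 parental replicate 3 RPL12 stood at 0.18, IMP4 at 0.30 and ETV1 at 0.27, and the G2/M median was -0.39. TFE3 stood at 0.02 and FLI1 at -0.43 in TC71 parental replicate 2, and DUSP5 at 0.24 in TC71 parental replicate 3.

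Of the 164 genes that passed the limma test of the difference between the lines, 6 are named here: the change in TC32 exceeded that in TC71 by 4.99 for TRIM48, 5.28 for MC1R, 4.66 for DHRS2, 3.46 for RFPL1 and 3.16 for INA, and the difference was -2.24 for CTAG2.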

How the results depend on the processing

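The pooled count of 633 was 396 without probe sets of the _x_at and _s_at kinds, 983 with a filter on SD, 1818 with array weights, 380 in a fit of all 18 arrays, 29 at an adjusted p under 0.01, 86 with a 2-fold minimum, 400 without the 3 arrays that stand apart, 299 with TC71 72 h replicates 1 and 3 averaged, 1014 from 4 group means, 222 without a line term, and 27 where both lines had to pass. Leaving out 1 array gave 106 to 1099. The line difference count of 164 was 43 after quantile normalization, 61 without those probe sets, 55 with a trended robust variance, 1878 with weights, 48 over 18 arrays, 24 at 0.01, 69 with the 2-fold minimum, 782 without the 3 arrays, 71 with the averaged pair, and 58 (without TC71 72 h replicate 3) to 317 (without TC32 parental replicate 1) with 1 array left out. No gene that passed changed sign with 1 array left out, while the changes over both lines of FLI1, CTAG2 and NR0B1, none of which passed, and several list medians near 0 (EWS-FLI1 activated and p53 targets among them) did so in some setting; the causes of the shifts were not tested beyond what fewer arrays or genes imply. The other planned results were counted once for each gene or list median in each setting. Of these, 2649 were unchanged, which includes genes that passed in neither fit and list medians, which have no call. A call was lost in 806 and gained in 52, and 25 list medians moved. For list counts, computed under settings chosen after seeing the data, 148 stayed within 1.5 times and 188 did not.

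With the replicate number as a block the counts were 514 for the pooled change, with 338 of the 633 genes among them, and 115 for the line difference. Same-numbered arrays did not deviate together throughout (correlations 0.22, 0.01 and 0.37 in TC32 and -0.01, 0.04 and 0.03 in TC71), so the numbers are not taken as pairs. Of the genes said to pass whichever array was left out, RND3, CAMK2N1, PRIM1, BHLHE40 and CKAP4 did not pass over all 18 arrays, RND3, CAMK2N1, FAT4, PRIM1 and DNAJA2 without a line term, CKAP4 with the block, RPL27 without the 3 arrays, and FN1 without _x_at and _s_at probe sets. Signal over background cannot be read from these values.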
